A study of Saccharomyces cerevisiae with 12 samples.

Results

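Wildtype polysomal mRNA was compared with wildtype total mRNA in a strain of the budding yeast Saccharomyces cerevisiae. The comparison rests on 6 of the 12 libraries of the series, namely the 3 labelled as WT polysome associated mRNA and the 3 labelled as WT total mRNA, and it was described across all genes. Libraries with the same replicate number were treated as the polysomal and the total mRNA of 1 culture. Both pools came from strain yJD1045, a MATa strain carrying can1-100, the amino acid and uracil markers trp1, his3-11, leu2-3 and ura3-1, and ade2-1, in which the chromosomal rDNA is deleted (rdn1ΔΔ::HIS3). All its rRNA therefore came from a plasmid, on which the 35S operon carried a tetracycline repressible promoter read by RNA polymerase II, and this holds for every library of the series. The cells were grown in YPD to an OD of 0.8, without DTT stress. The paper names YPD with hygromycin B for maintenance and RNA extraction, and YPD alone for polysome profiles. The plasmid also carries a point mutation in the small-subunit rRNA that makes the ribosomes resistant to hygromycin B. Polysomal mRNA was the poly(A)-containing RNA of pooled polysome fractions of a density gradient, and total mRNA was the poly(A)-containing RNA of cell lysates. The other 6 libraries hold the same pools of ΔES27Lb, in which the plasmid rRNA lacks the b-arm of expansion segment ES27L.

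A polysome is an mRNA with several ribosomes on it. Such mRNAs sediment faster in a density gradient than free mRNPs and single ribosomes, and the polysomal fractions therefore collect mRNAs under active translation, together with anything else that sediments as far. The P/T ratio of a gene, its level in polysomal mRNA over its level in total mRNA, is used as a reading of how large a share of its mRNA sits in polysomes. It counts mRNA molecules and not the ribosomes on each of them.

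The polysomal libraries held between 16896450 and 17362641 counts, and the total libraries between 15514469 and 21532842. Values are given as CPM, the usual depth-scaled count, with library sizes adjusted by TMM, and log2 P/T is the polysomal over the total level on the log2 scale. Each P/T is relative to the other genes of the same libraries, since no spike-in is named for these samples. A floor of 3 counts corresponded to between 0.19 and 0.21 CPM in polysomal libraries and between 0.11 and 0.17 CPM in total libraries, which covers counting error only. Culture 1 stood apart from the other cultures. The SD of log2 P/T over genes was 1.05 in culture 1, 0.62 in culture 2 and 0.60 in culture 3, and 32.4%, 6.38% and 4.21% of the genes exceeded 1 in size. As markers of the labelled mating type, 6 of the 7 a-cell genes of the list were detected in every library at 11.3 CPM or more, and ASG7 lay between 1.03 and 3.05 CPM. Of the alpha-cell genes, MF(ALPHA)2 was at 0 CPM in 4 of 6 libraries, MF(ALPHA)1 at 1.01 CPM or less and STE3 at 2.29 CPM or less, whereas SAG1 lay between 17.1 and 30.1 CPM.

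Most mRNAs of the cytosolic ribosome, of mitochondrial ribosomes, of histones and of thioredoxin enzymes were higher in polysomal than in total mRNA. Most mRNAs of P-type ATPases and of proteins with a CDS over 4500 nt were lower, as were 283 of 688 mRNAs of predicted membrane proteins. Of 6003 genes tested, 1013 were higher in polysomal mRNA (16.9%) and 937 were lower (15.6%) at an adjusted p of 0.05 in the quasi-likelihood test of edgeR with the culture as a block. All 1013 higher and all 937 lower genes had the same sign in the 3 cultures, which a call from these same cultures largely implies. Of all 6003 genes tested, 1946 were positive and 2061 negative in all 3 cultures. The median log2 P/T was 0.79 for the higher genes, -0.79 for the lower genes and -0.04 for all genes tested, and 207 higher and 230 lower genes exceeded 1 in size. The test depends on the pairing of the libraries. Without the replicate block 0 genes were higher and 7 were lower in edgeR, although for 1709 genes the unadjusted p did not exceed 0.05, and DESeq2 without the block called 370 higher and 391 lower genes. The 7 genes that edgeR called lower without the block were RDN37-1, LSR1, 15S_RRNA, SNR86, TLC1, YCR024C-B and FLO5. Without culture 1 the block fit called 519 higher and 353 lower genes, without culture 2 834 and 607, and without culture 3 510 and 438. No called gene changed its sign under any of these settings.

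**Figure D1:**
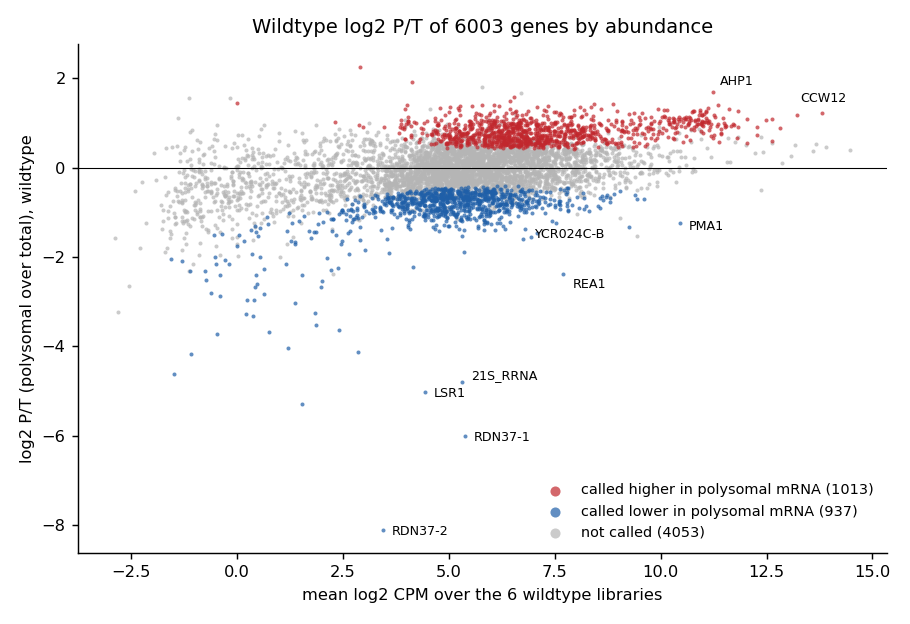
Each point is 1 of 6003 genes, with its mean log2 CPM over the 6 wildtype libraries on the x axis and its wildtype log2 P/T on the y axis. Red points are the 1013 genes called higher in polysomal mRNA, blue points the 937 called lower and grey points the 4053 not called. The points far below the rest include rRNA, LSR1, snoRNAs and mitochondrially encoded genes, and the RDN37-2 point rests on 3 polysomal counts in all. All libraries hold poly(A)-containing RNA, so the rRNA points do not show the share of rRNA in polysomes.

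The scaling decides where 0 lies. TMM factors were between 0.843 and 0.950 for the polysomal libraries and between 1.122 and 1.287 for the total libraries. With library totals in place of TMM, the median log2 P/T of all genes was -0.45 in place of -0.04, and 224 genes were higher and 2297 lower, so that 8.89% of the calls were higher in place of 51.9%. The directions below therefore hold relative to the typical gene, and list medians are given beside the -0.04 of all genes.

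Called protein-coding genes were ranked where their log2 CPM averaged 3 or more, and the 15 with the highest P/T included several small mitochondrial and redox proteins. AHP1, a thioredoxin peroxidase, had 2452, 691 and 7225 CPM in polysomal mRNA of cultures 1, 2 and 3, against 332, 309.7 and 3385 CPM in total mRNA. Its polysomal level was higher in every culture, but the levels differed so much between cultures that the ranges overlapped. log2 P/T was 1.70 ± 0.32 (SE of the fit, n = 3 cultures, adjusted p = 0.012), which is 3.24-fold. The SE here and below rests on the spread estimated from all 12 libraries. It is not the spread of the 3 culture values, which were 2.89, 1.16 and 1.09 for AHP1. MXR2, the mitochondrial methionine-R-sulfoxide reductase, had 130.2, 78.9 and 195 CPM in polysomal and 18.7, 37.8 and 102 CPM in total mRNA, with a log2 P/T of 1.57 ± 0.35 (adjusted p = 0.013). ILV6, the regulatory subunit of acetolactate synthase in branched-chain amino acid synthesis, had 748, 729 and 563 CPM in polysomal mRNA, against 195, 282 and 286 CPM in total mRNA. Here the ranges of both pools were well apart, and log2 P/T was 1.43 ± 0.23 (adjusted p = 0.012).

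The ribosomal protein gene RPS14A also belonged to these 15, with 3879, 4108 and 3273 CPM in polysomal and 993, 1913 and 1509 CPM in total mRNA. The lowest polysomal value thus exceeded the highest total value, and log2 P/T was 1.39 ± 0.25. Further members were ZIM17, which keeps mitochondrial Hsp70 soluble (1.39 ± 0.36), PET191, an assembly factor of cytochrome c oxidase (1.37 ± 0.30), MIC10, a core protein of mitochondrial cristae junctions (1.37 ± 0.29), and ACP1, the mitochondrial acyl carrier protein (1.36 ± 0.24). SMX3, a core protein of spliceosomal snRNPs, had a log2 P/T of 1.39 ± 0.36, HPA3, a D-amino acid N-acetyltransferase, 1.39 ± 0.30, CUE4 1.39 ± 0.32 and REE1 1.41 ± 0.30. SOL4, a 6-phosphogluconolactonase, had 32.2, 9.50 and 245 CPM in polysomal and 3.90, 7.13 and 137 CPM in total mRNA, and its log2 P/T of 1.37 ± 0.40 spanned 3.04, 0.41 and 0.84 in the cultures.

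Entries at the high end with shared sequence need care. NHP6B, a high-mobility group protein of chromatin, had a log2 P/T of 1.48 ± 0.32. Of the runs of 50 nt in its coding sequence, 43.0% also occur in another annotated coding sequence. That count includes YBR090C, which overlaps NHP6B on the same strand. NHP6A, the paralogue of NHP6B, had 1.22 ± 0.34 (adjusted p = 0.024, chosen after its values were seen), and overlaps YPR053C on the same strand. YLR154C-H had the highest value of the 15 with 1.91 ± 0.51, but it lies opposite a 5S rRNA gene in the rDNA region, all of its coding sequence is shared, and its total level in culture 2 was 1.55 CPM, against 13.6 and 10.7 CPM in cultures 1 and 3. How the counting treated reads with several matches is not given in the sources used here.

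At the low end stood REA1, the giant AAA ATPase midasin of 60S subunit assembly and the longest protein of yeast. It had 72.9, 87.7 and 20.4 CPM in polysomal mRNA, against 628, 365 and 79.7 CPM in total mRNA. Its polysomal share was low in each culture, with log2 P/T of -3.11, -2.06 and -1.96, while the level itself was lowest in culture 3 in both pools. The fitted value was -2.38 ± 0.24 (adjusted p = 0.0043), a level 5.19-fold lower in polysomal mRNA. IRA2, a GTPase activating protein that keeps Ras inactive, had 15.1, 15.9 and 21.4 CPM in polysomal and 77.1, 57.4 and 60.7 CPM in total mRNA. The libraries of both pools did not overlap, and log2 P/T was -1.90 ± 0.31 (adjusted p = 0.012).

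UTP20, a component of the small-subunit processome, had 60.6, 88.9 and 24.2 CPM in polysomal and 284, 228 and 49.6 CPM in total mRNA, with a log2 P/T of -1.54 ± 0.24. CDC39, the scaffold of the CCR4-NOT deadenylase complex, had 34.3, 37.9 and 38.3 CPM against 126, 94.9 and 77.2 CPM, and a log2 P/T of -1.40 ± 0.25. Its polysomal libraries agreed closely, and all were below the total libraries. The same held for MON2, a protein of endosome to Golgi traffic, with 22.2, 20.9 and 25.1 CPM in polysomal and 63.0, 58.5 and 57.2 CPM in total mRNA and a log2 P/T of -1.39 ± 0.26. The ABC transporters PDR12, for weak acids, and YBT1, for bile acids, had -1.39 ± 0.29 and -1.37 ± 0.23. HOB2 had -1.39 ± 0.26, as did the Ty gag-pol gene YGR038C-B with ± 0.23, whose sequence is fully shared with other Ty copies.

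Other low genes leaned on culture 1. HXT4, a hexose transporter, had 37.3, 58.3 and 17.3 CPM in polysomal and 415, 92.1 and 29.7 CPM in total mRNA. Its log2 P/T was -3.47 in culture 1 and -0.66 and -0.78 in the others, with a fitted -1.59 ± 0.47 (adjusted p = 0.028). IZH4, a membrane protein of zinc homeostasis (-1.84 ± 0.44), COS10 (-1.61 ± 0.51), the bromodomain protein BDF2 (-1.47 ± 0.39) and GAS2, a glucanosyltransferase of the spore wall (-1.40 ± 0.38), had the same spread, with values between -2.68 and -3.46 in culture 1 and between -0.49 and -1.49 in cultures 2 and 3. The remaining gene of the lowest 15 was YCR024C-B, a short uncharacterized ORF. It had 61.9, 53.6 and 70.0 CPM in polysomal and 143, 193 and 149 CPM in total mRNA, with a log2 P/T of -1.38 ± 0.19, the smallest error of the 15.

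**Figure D2:**
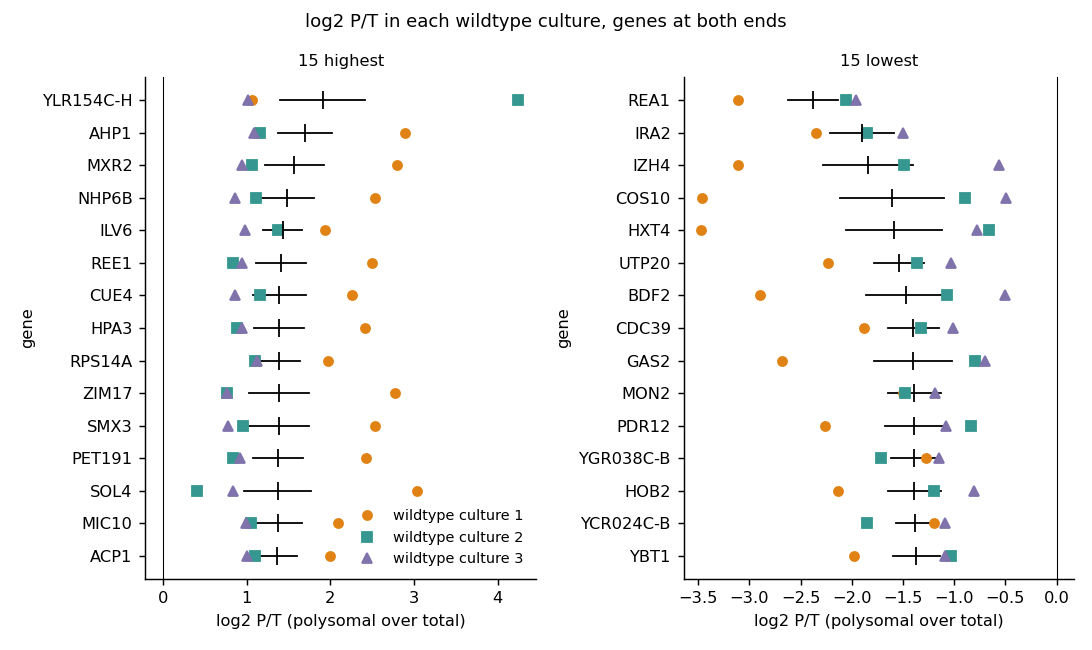
log2 P/T in each of the 3 wildtype cultures for the 15 genes with the highest (left) and the 15 with the lowest (right) fitted value, with symbols for the cultures and a black tick and bar for the fitted value ± SE. All 3 symbols lie on 1 side of 0 for each gene, as the rule of choice required. Culture 1 is farthest from 0 for most of the genes, for example 2.89 for AHP1 and -3.47 for HXT4.

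The mRNAs of the cytosolic ribosome formed the largest group with a high P/T. Of 56 genes for 40S proteins, 44 were higher in polysomal mRNA, none was lower, and the median log2 P/T was 0.96. Of 81 genes for 60S proteins, 70 were higher, none was lower, and the median was 0.97. The medians per culture were 1.42, 0.69 and 0.83 for the 40S and 1.42, 0.72 and 0.87 for the 60S list. With library totals they were 0.55 and 0.57, and 31 and 50 genes were higher. The number of higher genes was 35, 40 and 29 for the 40S list and 44, 68 and 43 for the 60S list when culture 1, 2 or 3 was left out.

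The single genes named here have the largest log2 P/T of their lists, while 23 of the 137 genes of both lists were not called. RPS15, of the head of the small subunit, had 4641, 5073 and 3616 CPM in polysomal and 1338, 2561 and 1633 CPM in total mRNA, with a log2 P/T of 1.31 ± 0.24 (adjusted p = 0.012). RPL20A had 2389, 3021 and 2000.5 CPM against 871, 1288 and 918 CPM, and 1.27 ± 0.20. No polysomal library of either gene fell into the range of the total libraries, but the share of all genes so separated was not counted. RPS19A (1.28 ± 0.24), RPL40A, which is made as a fusion with ubiquitin (1.28 ± 0.24), and RPL15A (1.26 ± 0.25) were alike. Each of these 3 genes shares between 11.8% and 14.2% of its runs of 50 nt with another annotated coding sequence. Across the 137 genes of both lists, log2 P/T lay between -0.27 and 1.39, and 129 were above 0 in all 3 cultures. Their coding sequences are short, with a median of 432 nt, and log2 P/T after subtraction of the median of genes of like length was still 0.36.

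Initiation factors were called about as often as all genes, with 4 of 26 higher (15.4%, against 16.9% of all genes) and 4 lower (15.4%, against 15.6%). Their median was 0.10, and with library totals 0 were higher and 11 lower with a median of -0.31. CDC33, the cap-binding protein eIF4E, had 1071, 1384 and 872 CPM in polysomal and 501, 833 and 496 CPM in total mRNA and a log2 P/T of 0.88 ± 0.18 (adjusted p = 0.012). TIF11, which encodes eIF1A, had 989, 1158 and 763 CPM against 616, 692 and 430.1 CPM, and 0.75 ± 0.19 (adjusted p = 0.017). The opposite was seen for NIP1, a large subunit of eIF3, with 185, 263 and 132 CPM in polysomal and 598, 412 and 179 CPM in total mRNA (-0.92 ± 0.28, adjusted p = 0.030). Left-out cultures moved these counts to 7, 1 and 1 higher and 0, 4 and 1 lower genes for cultures 1, 2 and 3.

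Of 11 elongation factors, 3 were higher (27.3%, against 16.9% of all genes) and 1 lower (9.09%, against 15.6%), and the median was 0.37. With library totals 3 were higher and 4 lower, and the median was -0.04. HYP2, which encodes eIF5A, had 8115, 8591 and 8713 CPM in polysomal and 2356, 5378 and 4953 CPM in total mRNA, and a log2 P/T of 1.09 ± 0.24. EFB1 and CAM1 encode subunits of the nucleotide exchange factor of eEF1A, and had 0.90 ± 0.19 and 0.89 ± 0.18. CAM1 was 530.5, 503 and 602 CPM in polysomal and 248, 285 and 360.0 CPM in total mRNA, with no overlap. Aminoacyl-tRNA synthetases, which charge tRNAs, had a median of -0.04, and only ILS1 (-0.60 ± 0.16, adjusted p = 0.020) and VAS1 (-0.53 ± 0.18, adjusted p = 0.048) of 18 were called. They make up 11.1% of the list, against 15.6% lower among all genes. Neither remained called without culture 1, and with library totals 9 of the 18 were lower.

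Factors that build ribosomes did not share the high P/T of the ribosomal proteins themselves. Of 42 genes of the small-subunit processome, the large complex that processes pre-18S rRNA, 3 were higher (7.14%) and 10 lower (23.8%). Among all genes the shares were 16.9% and 15.6%. The processome median was -0.27, and -0.06 after subtraction of the median of genes of like length. UTP10 had 112, 163 and 43.6 CPM in polysomal and 349.9, 361 and 81.6 CPM in total mRNA, and a log2 P/T of -1.23 ± 0.19 (adjusted p = 0.012). ECM16, an RNA helicase, had -0.89 ± 0.23. Of 39 factors of 60S assembly and export, 2 were higher (5.13%) and 3 lower (7.69%), both below the shares of all genes. Their median was -0.20, and -0.09 relative to genes of like length. The lower genes were REA1, its partner RIX1 (-0.82 ± 0.17) and MAK21 (-0.73 ± 0.18). These lists differed between cultures: the medians were -0.75, 0.00 and -0.04 for the processome and -0.89, 0.09 and 0.07 for the 60S factors in cultures 1, 2 and 3. Without culture 1, 2 processome genes were lower and the median of the 60S factors was 0.15, and with library totals 27 and 23 genes of the lists were lower.

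Many nuclear genes for mitochondrial ribosomal proteins had a high P/T. Of 75 genes in the list of mitochondrial ribosomal proteins, 53 were higher, none was lower, and the median was 0.69. This list holds KGD4 under an older name, which is now annotated as a subunit of alpha-ketoglutarate dehydrogenase (1.22 ± 0.26). IMG1, a protein of the large mitochondrial subunit, had 209, 188 and 237 CPM in polysomal and 52.7, 91.5 and 133 CPM in total mRNA, so that the pools did not overlap, and log2 P/T was 1.28 ± 0.26 (adjusted p = 0.012). MRPL28, of the same subunit, had 1.22 ± 0.22, and in the cultures 1.96, 0.91 and 0.81. The number of higher genes was 27, 45 and 30 without culture 1, 2 or 3, and 10 with library totals, where the median was 0.28.

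The respiratory chain followed. Of 37 nuclear genes for its subunits and for ATP synthase, 20 were higher and none lower, with a median of 0.66. COX13, a subunit of cytochrome c oxidase, had 397, 339 and 603 CPM in polysomal and 135, 197 and 310.4 CPM in total mRNA, and a log2 P/T of 1.10 ± 0.19 (adjusted p = 0.012). ATP7, of ATP synthase, had 0.99 ± 0.18, and QCR7, of the cytochrome bc1 complex, 0.95 ± 0.22. All 3 were highest in culture 3 in both pools. Left-out cultures gave 15, 24 and 13 higher genes, and library totals gave 3 with a median of 0.25.

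**Figure D3:**
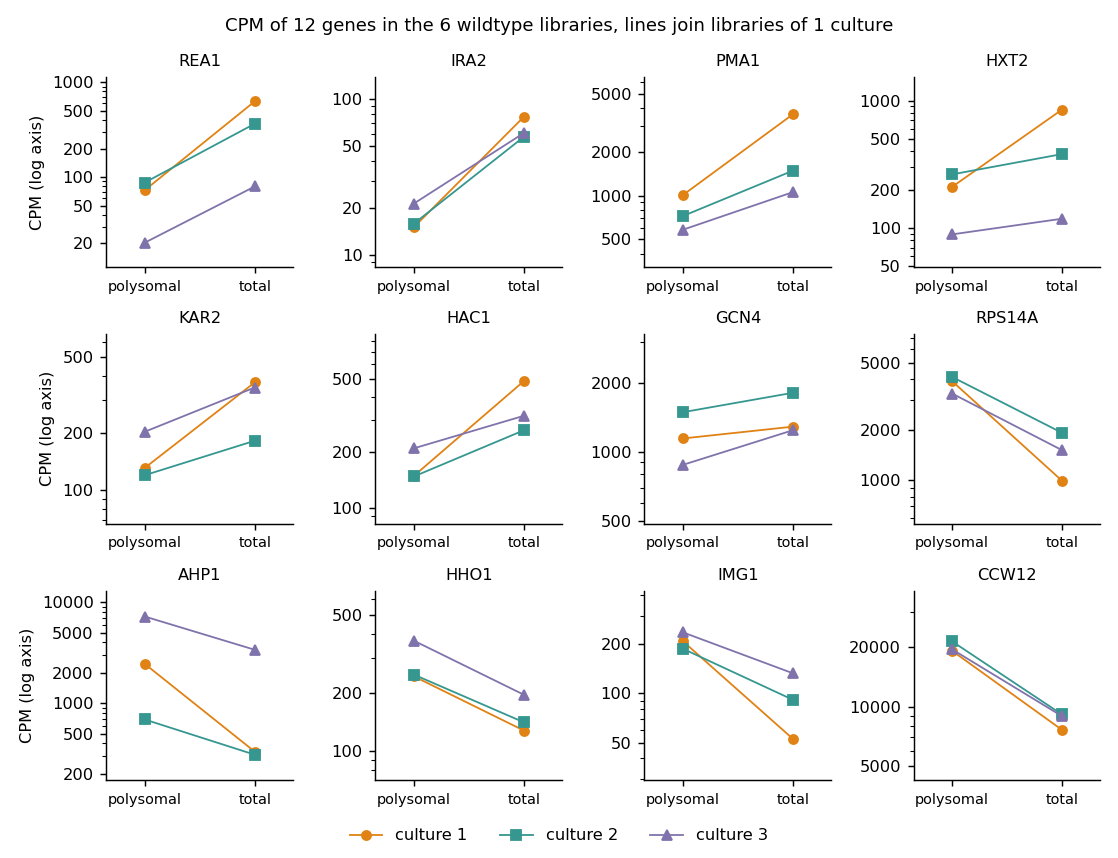
CPM of 12 genes in the 6 wildtype libraries on log axes, with polysomal mRNA on the left and total mRNA on the right of each panel and 1 line per culture. Lines that climb to the right, as for REA1, PMA1 and HAC1, show a lower polysomal level, and lines that descend, as for RPS14A, AHP1 and CCW12, a higher one, and the orange line of culture 1 is the steepest for PMA1, HXT2, HAC1 and IMG1.

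Of 23 genes for thioredoxins, peroxiredoxins and superoxide dismutases, 15 were higher, none was lower, and the median was 0.93, or 0.52 with library totals. TRX1, a cytosolic thioredoxin, had 328, 316 and 400.3 CPM in polysomal and 83.4, 172 and 198 CPM in total mRNA (1.28 ± 0.23, adjusted p = 0.012), and TRX2, its paralogue, had 1.21 ± 0.22 (chosen after its values were seen). TSA1, the main cytosolic peroxiredoxin, had 2267, 1593 and 3509 CPM against 569, 829 and 1912 CPM, and 1.27 ± 0.24. The pools of TSA1 overlapped because culture 3 was high in both, while those of TRX1 did not. Leaving out culture 1, 2 or 3 left 14, 15 and 13 genes of the list higher.

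All 11 histone genes were higher, with a median of 0.80 and a narrow range between 0.54 and 0.88. Their coding sequences are short, with a median of 399 nt. After subtraction of the median of genes of like length the list median was only 0.11. The linker histone HHO1 had 242, 247 and 368 CPM in polysomal and 128, 141 and 195 CPM in total mRNA, and log2 P/T was 0.92, 0.81 and 0.91 in the cultures. HTA1, for histone H2A, was as even, with 0.82, 0.84 and 0.83, and its sister gene HTA2 had 1.12, 0.59 and 0.79. HTA1 had 1442, 1520.0 and 1344 CPM in polysomal and 817, 849 and 756 CPM in total mRNA. The list medians were 0.92, 0.49 and 0.78 in cultures 1, 2 and 3. The calls lay near the threshold, with 7, 8 and 3 genes higher without culture 1, 2 or 3 and 0 of 11 with library totals, where the median was still 0.39 and edgeR made no call.

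The proteasome and several chaperones gave smaller differences. Of 33 proteasome genes, 16 were higher and 1 lower, with a median of 0.48. RPN10, a ubiquitin receptor of the regulatory particle, had 281, 260.2 and 386 CPM in polysomal and 110.2, 139 and 226 CPM in total mRNA, with 1.01 ± 0.19, and the core particle subunits PRE6 and PUP1 had 0.85 ± 0.19 and 0.85 ± 0.18. Without culture 1, 2 or 3 there were 14, 12 and 7 higher proteasome genes, and with library totals 1 was higher and 5 were lower. EGD1 and EGD2 form the nascent polypeptide-associated complex at the ribosome exit tunnel, and were higher by 1.12 ± 0.21 and 1.05 ± 0.19. EGD1 had 1179, 1323 and 1098 CPM in polysomal and 433, 738 and 516 CPM in total mRNA. They were the called genes among 7 ribosome-bound chaperones, whose median was 0.29 or, with library totals, -0.11.

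Of 17 cytosolic heat shock chaperones, SBA1 (0.71 ± 0.17, adjusted p = 0.016) and AHA1 (0.63 ± 0.19, adjusted p = 0.029), both co-chaperones of Hsp90, were higher. They make up 11.8% of the list, against 16.9% higher among all genes, and the median was -0.03. With library totals no gene of the list was higher and 4 were lower. Of the 8 subunits of the CCT chaperonin, which folds actin and tubulin, none was called by edgeR in either direction, and their values lay between -0.21 and 0.17. With library totals 6 of the 8 were lower.

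Of 15 P-type ATPases, which pump ions or lipids, 11 were lower, none was higher, and the median was -0.94. Their coding sequences are long, with a median of 3456 nt. After subtraction of the median of genes of like length the list median was only -0.12. PMA1, the proton pump of the plasma membrane, had 1009, 724 and 583 CPM in polysomal and 3612, 1482 and 1056 CPM in total mRNA, and log2 P/T was -1.24 ± 0.26 (adjusted p = 0.012). The polysomal library of culture 1 was below every total library but close to that of culture 3. The calcium pump PMC1 had -1.12 ± 0.24 and SPF1, a transporter of the ER, -1.08 ± 0.25. All 15 had a negative log2 P/T in all 3 cultures, with medians of -1.36, -0.59 and -0.79. Without culture 1, 2 or 3 there were 6, 9 and 9 lower genes.

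Of 20 amino acid permeases, 9 were lower and none was higher, with a median of -0.65. CAN1, the arginine permease, had 75.2, 82.5 and 52.8 CPM in polysomal and 207, 120.4 and 79.8 CPM in total mRNA, and log2 P/T was -0.87 ± 0.21 (adjusted p = 0.015). GAP1, the general permease, had -0.89 ± 0.31 (adjusted p = 0.049), and SSY1, the amino acid sensor, -0.72 ± 0.17. The calls rested on culture 1, where the median was -1.29, against -0.26 and -0.40 in cultures 2 and 3. Without culture 1, 0 of the 20 were called by edgeR, while without culture 2 or 3 it called 10 and 2, and 17 of the 20 were negative in all 3 cultures.

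Of 14 hexose transporters and glucose sensors, 3 were lower (21.4%, against 15.6% of all genes) and none higher. The median was -0.82, with -1.36, -0.39 and -0.46 in cultures 1, 2 and 3 and -0.41 without culture 1. HXT2 had 209.7, 263 and 88.9 CPM in polysomal and 848, 379.7 and 118 CPM in total mRNA (-0.98 ± 0.29, adjusted p = 0.029). The glucose sensor SNF3 had -0.99 ± 0.30. HXT3 had 215, 267 and 65.4 CPM in polysomal and 3167, 369 and 97.4 CPM in total mRNA, and a log2 P/T of -3.88, -0.47 and -0.57 in the cultures, and was not called (-1.54 ± 0.56, adjusted p = 0.058; chosen after its values were seen). Without culture 1, 2 or 3 the list had 1, 7 and 4 lower genes.

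Genes of protein import into the ER were mixed. Of 13 ER chaperones and oxidative folding enzymes, 4 were lower (30.8%, against 15.6% of all genes) and none higher, with a median of -0.30. KAR2, the Hsp70 of the ER lumen, had 131, 119.9 and 203 CPM in polysomal and 369, 182 and 347 CPM in total mRNA (-0.95 ± 0.19, adjusted p = 0.012). LHS1, its nucleotide exchange factor, had 12.9, 13.3 and 12.2 CPM against 63.8, 24.4 and 21.7 CPM (-1.33 ± 0.29), and the oxidase ERO1 had -1.10 ± 0.33. Of 17 genes of the signal recognition particle and the translocon, 5 were higher (29.4%, against 16.9% of all genes) and 2 lower (11.8%, against 15.6%). SEC63 (-0.95 ± 0.26) and SSH1 (-0.91 ± 0.24), membrane subunits of translocon complexes, were the lower genes, while SEC62, which works with SEC63, was higher with 246, 212 and 179.6 CPM in polysomal and 130.5, 133 and 128 CPM in total mRNA (0.69 ± 0.16, adjusted p = 0.014). The left-out cultures gave 2, 4 and 4 lower ER genes, and 3, 4 and 1 higher and 0, 3 and 2 lower translocon genes. With library totals 12 of the ER genes were lower, and of the translocon genes 0 were higher and 6 lower, with a median of -0.26 in place of 0.15.

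Cell wall proteins were mostly on the high side. Of 24 cell wall mannoproteins, 8 were higher (33.3%, against 16.9% of all genes) and 3 lower (12.5%, against 15.6%), with a median of 0.55. CCW12 had 19145, 21356 and 19469 CPM in polysomal and 7643, 9139.6 and 8962 CPM in total mRNA, and log2 P/T was 1.32, 1.22 and 1.12 in the cultures (fitted 1.22 ± 0.25, adjusted p = 0.012). CWP2 had 13792, 12822 and 12982 CPM against 4529.6, 5969 and 7181 CPM (1.19 ± 0.26), and CWP1 had 1.29 ± 0.31. None of the 3 overlapped between the pools, but they were named for the largest log2 P/T of their list. The share of all genes without overlap was not counted. The higher and lower counts were 7 and 1, 6 and 2, and 5 and 1 without culture 1, 2 or 3, and 4 and 6 with library totals.

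Among the 7 a-cell genes, the pheromone exporter STE6 (-1.16 ± 0.28), the pheromone receptor STE2 (-0.84 ± 0.24) and the secreted protease BAR1 (-0.71 ± 0.19) were lower. STE2 had 69.7, 103 and 73.9 CPM in polysomal and 212, 143 and 102 CPM in total mRNA, so that the ranges overlapped narrowly. The short pheromone precursors MFA1 (-0.19 ± 0.35) and MFA2 (0.08 ± 0.25) and AGA2 (0.51 ± 0.36) and ASG7 (0.10 ± 0.44) were not called. No alpha-cell gene was called by edgeR, and SAG1 had -0.42 ± 0.21. With culture 1, 2 or 3 left out, there were 0, 3 and 2 lower a-cell genes.

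**Figure D4:**
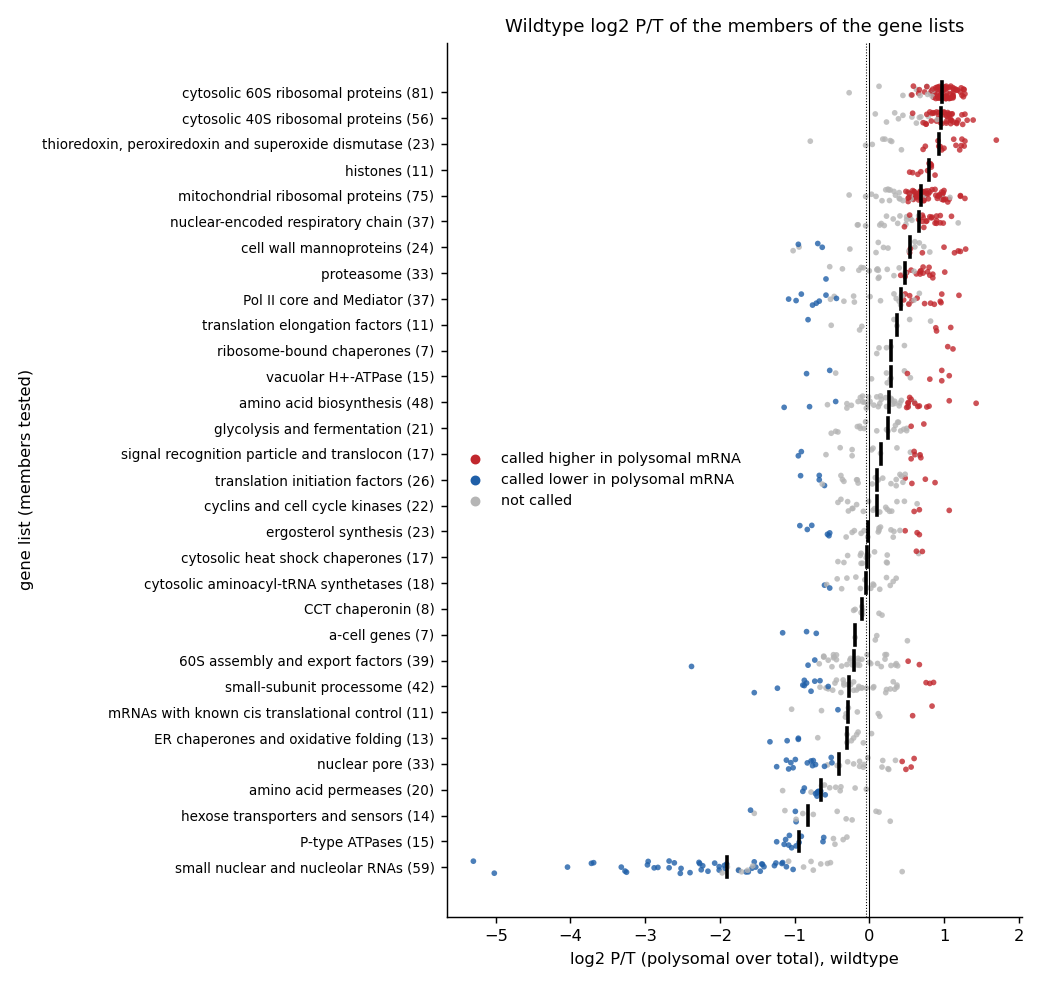
Wildtype log2 P/T of the members of 31 gene lists, 1 point per gene tested, with red for genes called higher and blue for genes called lower in polysomal mRNA, grey for the rest, a black bar at each list median and a dotted line at the median of all genes. The cytosolic 60S and 40S ribosomal proteins lie at the top with medians of 0.97 and 0.96, and the P-type ATPases and the small nuclear and nucleolar RNAs at the bottom with -0.94 and -1.91.

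Of 11 mRNAs with known translational control through their own sequence, 2 were higher, 1 was lower and 8 were not called. These shares, 18.2% higher and 9.09% lower, compare with 16.9% and 15.6% of all genes. GCN4, the activator of amino acid synthesis whose upstream ORFs hold back its translation in fed cells, had 1144, 1487 and 879 CPM in polysomal and 1287, 1805 and 1242 CPM in total mRNA. Its log2 P/T of -0.32 ± 0.22 was negative in all 3 cultures but not called (adjusted p = 0.30). HAC1, the transcription factor of the unfolded protein response, whose unspliced mRNA is held back by its intron, had 149, 148 and 210.1 CPM in polysomal and 485, 263 and 315 CPM in total mRNA. The pools did not overlap, and log2 P/T was -1.04 ± 0.37 with an adjusted p of 0.051, just past the threshold. For its short coding sequence of 717 nt this was low, at -1.53 after subtraction of the median of genes of like length.

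SCO1, a copper protein of cytochrome c oxidase assembly (0.84 ± 0.23, adjusted p = 0.023), and CAD1, a stress transcription factor with upstream ORFs (0.58 ± 0.16, adjusted p = 0.024), were the higher genes of this list. The lower gene was HOL1, a polyamine transporter with an upstream ORF (-0.42 ± 0.15, adjusted p = 0.049). The others lay between -0.64 and 0.14: PPR1 had -0.64 ± 0.25, YAP1 -0.31 ± 0.17, CLN3 -0.28 ± 0.19, ASH1 -0.16 ± 0.15, INO2 0.12 ± 0.18 and CPA1 0.14 ± 0.17. CPA1 encodes a subunit of carbamoyl phosphate synthetase, and its upstream ORF for the arginine attenuator peptide is annotated as YOR302W. CPA1 had 443, 369 and 242 CPM in polysomal and 384, 323 and 236 CPM in total mRNA. YOR302W had 9.22, 11.8 and 10.3 CPM against 37.5, 15.8 and 12.9 CPM (-0.91 ± 0.30, adjusted p = 0.043, chosen after its values were seen). Its log2 P/T leaned on culture 1, with -2.02, -0.41 and -0.31 in the cultures. As an upstream ORF it is part of the CPA1 mRNA, so its value is not the polysomal share of a separate mRNA. The list had 0, 1 and 1 higher genes and 0 lower ones in edgeR without culture 1, 2 or 3, and 7 lower ones with library totals.

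In metabolism most genes were not called. Of 48 amino acid biosynthesis genes, 13 were higher (27.1%, against 16.9% of all genes) and 3 lower (6.25%, against 15.6%), with a median of 0.26. With library totals 2 were higher and 11 lower, and the median was -0.15. HIS3 had 623, 555 and 550.0 CPM in polysomal and 179, 301 and 377 CPM in total mRNA (1.07 ± 0.28, adjusted p = 0.019), and is also the marker that replaces the rDNA in this strain. SER3, of serine synthesis, was low with 33.3, 46.1 and 45.1 CPM against 179, 62.1 and 69.9 CPM (-1.14 ± 0.33, adjusted p = 0.026). Upstream of SER3 and on the same strand lies SRG1, a non-coding RNA whose transcription is known to repress SER3, and SRG1 had 13.3, 11.1 and 21.2 CPM in polysomal and 39.0, 39.1 and 40.2 CPM in total mRNA (-1.43 ± 0.21; chosen after its values were seen). The annotations overlap, so reads of SRG1 and SER3 may be shared. When culture 1, 2 or 3 was dropped, the list had 4, 5 and 5 higher and 1, 2 and 2 lower genes.

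The median of the glycolysis list was 0.25 or, with library totals, -0.16. The list held 2 higher genes of 21 (9.52%, against 16.9% of all genes) and none lower. They were GPM1, the phosphoglycerate mutase, with 5095, 6362 and 7135 CPM in polysomal and 3238, 3677 and 4227 CPM in total mRNA (0.73 ± 0.19), and TPI1, the triose phosphate isomerase (0.56 ± 0.18). Without culture 1, 1 gene of the list was called, and without culture 2 or 3 edgeR called 0. In ergosterol synthesis 3 of 23 genes were higher (13.0%, against 16.9% of all genes) and 6 lower (26.1%, against 15.6%), with a median of -0.02. The membrane enzymes HMG1 (-0.93 ± 0.21), HMG2 (-0.83 ± 0.24) and ERG11 (-0.77 ± 0.22), of which HMG1 and HMG2 make mevalonate and ERG11 demethylates lanosterol, were lower. HMG1 had 88.0, 63.6 and 57.8 CPM in polysomal and 249, 88.3 and 103 CPM in total mRNA. The ergosterol list had 0 higher and 10 lower genes with library totals, and 0, 3 and 1 lower genes without culture 1, 2 or 3.

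Complexes with small and large subunits were split. In the vacuolar H+-ATPase, 5 of 15 genes were higher (33.3%, against 16.9% of all genes) and 2 lower (13.3%, against 15.6%). VMA4 had 997, 944 and 1044 CPM in polysomal and 412, 491 and 529 CPM in total mRNA (1.07 ± 0.18), VMA7 had 0.97 ± 0.19 and VMA11, a proteolipid of the membrane sector, 0.97 ± 0.20. Of 33 nuclear pore genes, 4 were higher (12.1%, against 16.9% of all genes) and 14 lower (42.4%, against 15.6%), with a median of -0.40. After subtraction of the median of genes of like length the list median was 0.06. NUP192, a large scaffold nucleoporin, had 47.1, 53.3 and 30.2 CPM against 109.7, 132 and 68.9 CPM, and its log2 P/T was -1.24 ± 0.23. NUP170 had -1.10, -1.18 and -0.96 in the cultures, and the membrane nucleoporin POM152 had -1.92, -0.71 and -0.70. With culture 1, 2 or 3 left out, the vacuolar list had 4, 4 and 3 higher genes and the nuclear pore list 9, 11 and 9 lower ones, and with library totals 3 vacuolar genes were higher and 3 lower, and 21 nuclear pore genes were lower.

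Of 37 subunits of RNA polymerase II and Mediator, 13 were higher (35.1%, against 16.9% of all genes) and 8 lower (21.6%, against 15.6%). With library totals 1 was higher and 11 were lower. RPB11, a short core subunit, had 165, 137 and 165 CPM in polysomal and 41.3, 83.4 and 88.6 CPM in total mRNA (1.20 ± 0.30, adjusted p = 0.018). The long Mediator subunits NUT1 (-1.08 ± 0.18) and SRB8 (-0.98 ± 0.22) were lower. When culture 1, 2 or 3 was dropped, the higher genes numbered 0, 9 and 7 and the lower ones 4, 5 and 3. Of 22 cyclins and cell cycle kinases, 3 were higher (13.6%, against 16.9% of all genes) and none lower. They were CDC28, the central cell cycle kinase (0.60 ± 0.16), CKS1, its regulatory subunit (1.07 ± 0.27), and PHO85, a kinase of phosphate signalling (0.67 ± 0.17). CDC28 had 131, 134 and 148 CPM in polysomal and 84.8, 89.6 and 98.6 CPM in total mRNA, and a log2 P/T of 0.63, 0.58 and 0.59 in the cultures. With library totals no gene of the list was higher and 7 were lower.

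The coding length ran through these groups. Among 5685 nuclear protein-coding genes, the Spearman correlation of log2 P/T with CDS length was -0.66, and it was -0.61, -0.54 and -0.67 in cultures 1, 2 and 3. This is a description across genes of the same libraries, which are not independent. Relative to genes of like length, list medians were 0.21 for mitochondrial ribosomal proteins, 0.17 for the respiratory chain and 0.30 for thioredoxin enzymes. They were -0.44 for amino acid permeases, -0.54 for hexose transporters and sensors and -0.57 for ER chaperones. The higher genes had a median CDS of 612 nt and the lower genes 2658 nt, against 1236 nt for all. Of 797 genes with a CDS over 300 and up to 600 nt, 437 were higher and 5 lower, with a median log2 P/T of 0.70. Of 710 genes over 1200 and up to 1500 nt, 19 were higher and 54 lower, with a median of 0.02. Of 164 genes over 4500 nt, 131 were lower and none was higher, with a median of -0.93. No gene over 2000 nt of 1314 was higher, and 599 were lower. The shortest ORFs left the trend: of 237 genes of up to 300 nt, 51 were higher and 16 lower, and their median of 0.38 spanned 1.02, 0.01 and 0.20 in the cultures. With culture 1, 2 or 3 left out, genes of up to 900 nt gave 463, 769 and 468 higher calls in place of 843, and genes over 2000 nt gave 263, 388 and 271 lower calls in place of 599. With library totals the counts were 219 and 1131.

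Genes for predicted membrane proteins had a lower median log2 P/T than other genes in every length class over 300 nt. Predictions were made from hydropathy alone, as 2 or more stretches of 19 residues whose Kyte-Doolittle average reached 1.6. Of 688 such genes, 19 were higher and 283 lower, with a median of -0.54, and of 4997 others, 991 were higher and 582 lower, with a median of 0.06. Among genes over 600 and up to 900 nt the medians were -0.04 for membrane and 0.48 for other proteins. From there to 1200 nt they were -0.28 and 0.25, up to 1500 nt -0.54 and 0.06, and over 2000 and up to 3000 nt -0.67 and -0.35. Over 4500 nt they came close, with -0.98 and -0.89. The order was the same in each culture in each length class of more than 300 nt, and over 1500 and up to 2000 nt the medians were -0.96, -0.35 and -0.45 for membrane and -0.30, -0.08 and -0.10 for other proteins. When culture 1, 2 or 3 was dropped, 100, 218 and 153 membrane protein genes were lower.

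**Figure D5:**
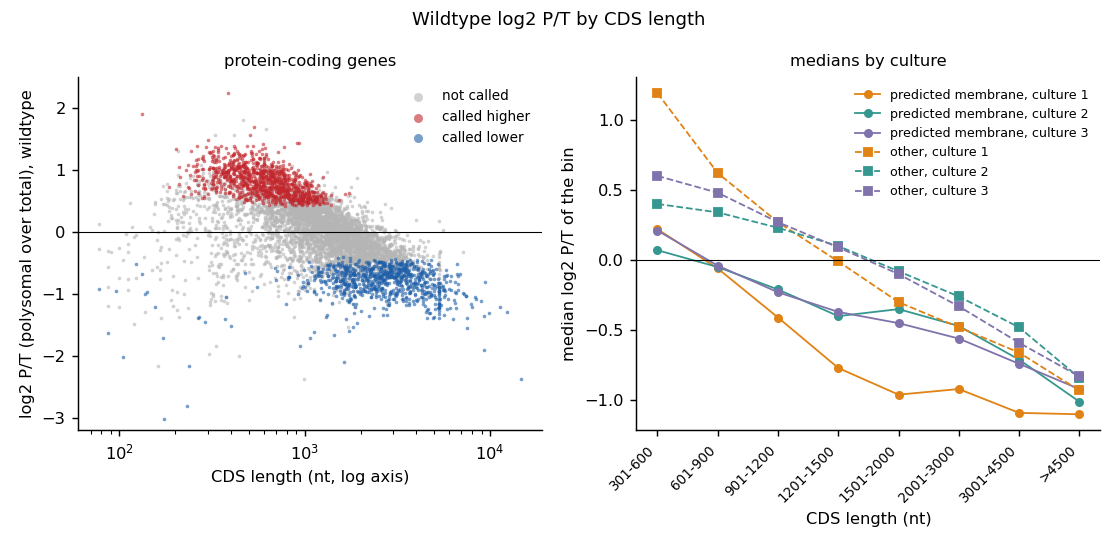
Left, wildtype log2 P/T against CDS length on a log axis for 5685 protein-coding genes, with red for genes called higher, blue for genes called lower and grey for the rest. Right, median log2 P/T per class of CDS length in each culture, with circles and solid lines for predicted membrane proteins and squares and dashed lines for other proteins, and the solid line lies below the dashed line of its culture in every class, for example at -0.77 and -0.01 for the class that ends at 1500 nt in culture 1.

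Abundance and GC content moved with the fitted P/T to a lesser degree, and codon choice hardly did. Across the same 5685 genes the Spearman correlation was 0.38 with mean log2 CPM and 0.39 with the GC content of the CDS. In cultures 1, 2 and 3 it was 0.18, 0.50 and 0.47 for mean log2 CPM and 0.30, 0.51 and 0.31 for GC content. In culture 2 both were thus close in size to the -0.54 of CDS length. The codon adaptation index relative to ribosomal protein genes gave 0.06, and -0.04, 0.14 and 0.16 in cultures 1, 2 and 3. The cytosolic ribosomal proteins were left out of the classes that follow. Among genes of up to 600 nt the median log2 P/T was 0.73 for 205 genes with an index over 0.25. For 262 genes with an index of 0.15 or less it was 0.39. In the same order, the medians were 0.38 and 0.33 over 600 and up to 1200 nt. They were -0.10 and -0.08 from there to 2000 nt, and -0.46 and -0.57 over 2000 nt. The 308 genes with an intron in their CDS had 130 higher and 38 lower members and a median of 0.47, but without the cytosolic ribosomal proteins 51 of 219 were higher, 38 were lower and the median was 0.07.

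Some genes departed from the trend of their length, and all of these were chosen after their values were seen. YCL002C, a predicted membrane protein of 792 nt, had 13.1, 18.7 and 13.2 CPM in polysomal and 31.2, 46.0 and 25.3 CPM in total mRNA (-1.17 ± 0.21), with no overlap of the pools. MRH1, a plasma membrane protein of 963 nt, had 201, 171 and 141 CPM against 664, 244 and 198 CPM (-0.90 ± 0.25). YGL188C-A, an uncharacterized ORF of 141 nt, had 7.59, 6.22 and 6.98 CPM in polysomal and 12.9, 17.0 and 11.2 CPM in total mRNA (-0.96 ± 0.25). On the other side, VPS17, a retromer subunit of 1656 nt, had 79.1, 74.6 and 133 CPM against 42.2, 50.2 and 101 CPM (0.62 ± 0.16, adjusted p = 0.018). It was 1 of 3 genes over 1500 nt that were higher, the others being TRP2, of tryptophan synthesis (0.52 ± 0.16), and ICL2, a mitochondrial methylisocitrate lyase (0.63 ± 0.21). ADE17, of purine synthesis, had 0.73 ± 0.28 for 1779 nt and was not called (adjusted p = 0.065).

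Most small nuclear and nucleolar RNAs were lower in polysomal mRNA. As all libraries were made from poly(A)-containing RNA, the values cover only the part of these RNAs that passed the selection. Whether the selection acted alike in both pools was not tested. Of 59 short non-coding RNAs on the list, namely 2 snRNAs, 53 snoRNAs and the RNAs of telomerase, RNase P, RNase MRP and the signal recognition particle, 45 were lower, none was higher, and the median was -1.91, or -2.32 with library totals. Their summed level was between 104.6 and 111.6 CPM in the polysomal and between 278.5 and 526.7 CPM in the total libraries. LSR1, the U2 snRNA, had 1.83, 1.09 and 0.872 CPM in polysomal and 67.4, 33.7 and 25.6 CPM in total mRNA, with -5.18, -4.90 and -4.82 in the cultures (-5.02 ± 0.50, adjusted p = 0.0043), which is 32.4-fold lower. SNR86, a snoRNA, had 5.89, 6.56 and 5.30 CPM against 45.4, 28.7 and 16.0 CPM (-2.23 ± 0.26). SNR17A, the U3 snoRNA, had -2.53 ± 0.43 at a mean log2 CPM of 2.02, and was chosen after its values were seen. SNR44 had -1.91 ± 0.39, but it lies in an intron of RPS22B, so its reads may include those of the pre-mRNA. With culture 1, 2 or 3 left out, 27, 28 and 32 of these RNAs were lower.

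Of the same list, the telomerase RNA TLC1 had 21.5, 18.5 and 19.8 CPM in polysomal and 69.1, 69.0 and 40.4 CPM in total mRNA. Its log2 P/T was -1.54 ± 0.23 (chosen after its values were seen). The RNA of RNase P had -2.97 and that of the signal recognition particle -1.46, and that of RNase MRP was not called (-1.97). These RNAs lie outside the rule by which genes were named. Of 7 other RNAs annotated as ncRNA, SRG1 was the 1 that was lower. All 4 genes tested from the list of mitochondrially encoded genes were lower, with a median of -4.39. Among them, the mitochondrial 21S_RRNA had 4.45, 3.14 and 1.06 CPM in polysomal and 94.6, 55.4 and 80.3 CPM in total mRNA (-4.81 ± 0.88, adjusted p = 0.012), 28.0-fold lower. RDN37-1 is the rDNA unit of the reference to which reads of the plasmid operon can align. It had 2.49, 0.547 and 1.06 CPM in polysomal and 97.4, 57.1 and 92.0 CPM in total mRNA (-6.01 ± 0.80, chosen after its values were seen). The second unit, RDN37-2, also chosen after its values were seen, had 0, 2 and 1 counts in polysomal and 736, 174 and 414 counts in total mRNA. Both units are near-identical copies, so the division of reads between them carries no information. Because the libraries hold poly(A)-containing RNA, the rRNA values do not measure the share of rRNA that sits in polysomes.

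In culture 1 some single genes differed from the other cultures by far more than the list medians. FIT2 and FIT3, cell wall proteins that help to bind iron siderophores, were the clearest of these, chosen after their values were seen. FIT3 had 499, 30.5 and 32.0 CPM in polysomal and 20.8, 17.2 and 31.0 CPM in total mRNA, and a log2 P/T of 4.58, 0.82 and 0.05. FIT2 had 188, 25.8 and 55.0 CPM against 6.02, 16.7 and 37.1 CPM, and 4.96, 0.63 and 0.57. Neither was called (adjusted p = 0.11 and 0.082), and the polysomal and total libraries of culture 1 differ in FIT2 and FIT3 in the direction opposite to HXT3 and HXT4.

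The values of ΔES27Lb had the same direction for nearly all called genes. Of the 1013 higher genes, 991 (97.8%) had a positive log2 P/T in the fit of ΔES27Lb, against 45.3% of all genes tested, and 808 (79.8%) were positive in all 3 of its cultures, against 25.7%. Of the 937 lower genes, 934 (99.7%) were negative, against 54.7%, and 804 (85.8%) were negative in all 3 cultures, against 30.8%. The ΔES27Lb libraries share no sample with the wildtype contrast, although both strains enter 1 estimate of the spread. The medians there were 0.50 for the higher and -0.54 for the lower genes, and 158 and 181 of them were called in ΔES27Lb. As the genes were chosen by their calls in wildtype, smaller medians in the other strain say nothing of a difference between the strains. The difference in P/T between wildtype and ΔES27Lb itself was called for 0 of 6003 genes (0%) by edgeR, with a smallest adjusted p of 0.88 and 187 genes at an unadjusted p of 0.05 or less. DESeq2 with the block called 0 and without it 1, which was RDN37-1. RDN37-1 had a log2 P/T of -6.01 in wildtype and -0.35 in ΔES27Lb, where the 3 cultures gave 2.76, -2.77 and -0.87.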

How the data were processed

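Raw read counts per gene were deposited by the authors for each of 12 libraries. Per the methods and processing notes, poly(A) RNA was sequenced from a stranded kit, reads were checked with FastQC, aligned with HISAT2 to the BY4742 genome and counted with featureCounts. Versions, strand setting and treatment of reads with several matches are not given in the sources used here. For the wildtype pools, 3 polysomal and 3 total libraries, log2 P/T was estimated with the quasi-likelihood test of edgeR 4.0.16 (R 4.3.3) on all 12 libraries, with the culture as a replicate block, TMM scaling, filterByExpr and Benjamini-Hochberg adjustment (adjusted p of 0.05 or less). Same-numbered libraries deviated together from their group means (r = 0.41, 0.68 and 0.90 over 5190 genes, mean 0.66), which was taken as the check of the pairing. With total libraries 1 and 2 exchanged, r was 0.26, 0.48 and 0.90 (mean 0.55). The check thus separates cultures 1 and 2 only weakly. Nothing else states that replicates were separate cultures, so p-values measure the spread between these samples. The SE is that of log2 P/T in this fit, with the spread estimated from all 12 libraries, and does not measure the spread of the 3 culture values. P/T of a culture used a prior count of 0.5. Wildtype and ΔES27Lb were compared in the same fit. DESeq2 1.42.0, other scalings and filters, left-out cultures, wildtype libraries alone and the fit without the block were alternatives. Of 7126 genes, 6162 matched the R64 annotation of RefSeq, which gave names, CDS lengths and hydropathy, and 6003 were tested. No coordinates are given, since the builds differ. Length adjustment subtracted the median of 20 equal classes of CDS length.

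Genes named were the 15 highest and 15 lowest called protein-coding genes with a mean log2 CPM of 3 or more and 1 sign in all cultures, up to 3 members of each list by size of log2 P/T, and all members of the lists of translational control and mating type genes. Others are marked as chosen after their values were seen or as outside this rule. The comparison, lists and rule were chosen with earlier results of these data known. The code was tested on simulated data.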

Additional observations from a re-analysis of the deposited data

How the results depend on the processing

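No called gene changed its sign under any alternative fit, but the number of calls depended on the pairing and on the libraries. Subtraction of the median of genes of like length turned the sign of 76 of 1010 higher and 115 of 865 lower protein-coding genes. Against 1013 higher and 937 lower genes, the fit without the replicate block gave 0 and 7 in edgeR (1709 at an unadjusted p of 0.05 or less), the 6 wildtype libraries alone 539 and 505, DESeq2 without the block 370 and 391, and library totals 224 and 2297. DESeq2 with the block gave 1236 and 943. Leave-one-out fits gave between 510 and 1030 higher and between 353 and 941 lower genes. The lowest came from leaving out wildtype culture 3 (510 and 438) and culture 1 (519 and 353), and culture 2 gave 834 and 607. For the difference between the strains, DESeq2 without the block called 1 gene, and 187 genes passed without adjustment of p. With library totals the log2 P/T of genes that were not called changed sign, at -0.26 for CPA1, -0.29 for INO2, -0.32 for MFA2, -0.31 for ASG7 and -0.28 for STE3. VAS1, which was called, was 0.03 relative to genes of its length. Leaving out wildtype cultures moved INO2 between -0.03 and 0.30, MFA1 between -0.47 and 0.01, AGA2 between -0.12 and 0.94, ASG7 between -0.30 and 0.58 and STE3 between -0.30 and 0.62. The cause of these shifts was not tested. Medians of 27 of 33 lists moved by more than their spread between cultures with library totals. Genes near the floor of 3 counts are limited by depth.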
